A study of Homo sapiens with 6 samples.

Results

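β-catenin binding was compared between SA121 cells kept for 6 h in RPMI medium with CHIR99021 (CHIR) and SA121 cells kept for 6 h in RPMI with CHIR99021 and SB431542 (CHIR+SB). SA121 is an established line of human embryonic stem cells. The comparison rests on every peak that the authors deposited for these conditions, 1053 in CHIR and 1813 in CHIR+SB, out of 3126 peaks in the 3 lists of the series. The remaining list, of cells in RPMI with neither compound (260 peaks), served as background. Each condition had 1 chromatin immunoprecipitation (ChIP) library with a goat antibody to β-catenin and 1 with control goat IgG. Each library was made from pooled DNA of ChIPs run in parallel, so there is no replicate and no test between the conditions. The values below describe these libraries. The intervals are exact 95% intervals of the read or peak counts, which cover counting error only, and PCR copies of a fragment are not independent reads.

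β-catenin carries the canonical Wnt signal. It has no DNA-binding domain of its own and is held on chromatin by TCF/LEF factors. CHIR99021 inhibits GSK3, the kinase that marks β-catenin for degradation, so the protein builds up in treated cells. SB431542 inhibits the type I receptors of activin, Nodal and TGFβ, which act through SMAD2/3. In the embryo, Wnt and Nodal signals act together in the primitive streak, the structure from which mesoderm and endoderm arise. The title of the series names SMAD2/3 and OCT4 as partners of β-catenin in inducing the streak, and the comparison asks how binding with CHIR differs when the SMAD2/3 branch is blocked.

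SP5, a zinc-finger repressor induced by Wnt signals, had a promoter peak in both lists, and the TCF/LEF words lay under it. The 250 bases before its RefSeq start (GRCh38.p14, chr2:170715087-170715336, plus strand) are shown as the case in which the peaks of both conditions cover the words. The same stretch is shown for SIX6, a homeobox gene of the eye and hypothalamus (GRCh38.p14, chr14:60508896-60509145, plus strand), the one promoter of those matched in which a peak found in CHIR+SB alone covered such a word. Capitals mark CTTTGAT or CTTTGAA, or the same words on the other strand. Both stretches are reference sequence and run 5′ to 3′.
SP5: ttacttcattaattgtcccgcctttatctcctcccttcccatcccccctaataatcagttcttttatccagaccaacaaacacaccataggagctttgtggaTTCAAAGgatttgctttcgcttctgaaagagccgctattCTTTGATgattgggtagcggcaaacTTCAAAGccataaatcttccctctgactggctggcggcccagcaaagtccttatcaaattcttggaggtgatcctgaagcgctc
SIX6: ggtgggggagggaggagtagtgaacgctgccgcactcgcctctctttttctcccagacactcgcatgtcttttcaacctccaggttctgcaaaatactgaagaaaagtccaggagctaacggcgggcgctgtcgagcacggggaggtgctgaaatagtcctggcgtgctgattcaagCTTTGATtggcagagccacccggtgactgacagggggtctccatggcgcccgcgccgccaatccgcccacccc

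In SP5 the words start 148, 109 and 84 bases before the transcription start site (TSS). Relative to the TSS the authors assigned, the CHIR peak ran from -561 to 151 bases and the CHIR+SB peak from -875 to 109, so all 3 words lay inside both. The SP5 peak had 85 reads in each library. The SIX6 word starts 73 bases before the TSS, and the CHIR+SB peak there ran from -95 to 16 bases with 14 reads and 3 IgG reads. The positions take the TSS of the lists as the RefSeq start.

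Peaks were called shared when they overlapped by at least 1 bp. Of the CHIR peaks 667 were shared and 386 (36.7%) overlapped no CHIR+SB peak. Of the CHIR+SB peaks 663 were shared and 1150 (63.4%) overlapped no CHIR peak, 2.98 times the number found in CHIR alone. Overlapping peaks merged into 657 regions, of which 642 held 1 peak of each list. For peaks found in 1 list, the nearest peak of the other lay a median of 333 kb away for CHIR only peaks and 909 kb away for CHIR+SB only peaks. These distances also depend on the size of the other list, 1813 and 1053 peaks, and were not compared with random placement. Within 1 kb of a peak of the other list lay 22 CHIR only and 27 CHIR+SB only peaks. The files give no read count of the other library at an unshared peak, so a missing peak is not a missing signal.

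The lists reach down to different read counts, and which class is larger depends on how this is handled. CHIR peaks start at 20 reads and CHIR+SB peaks at 12. One read was worth 0.384 units of normalized signal in CHIR and 0.563 in CHIR+SB, so the lowest signals lay closer together, at 7.68 and 6.75. An IgG read was worth 0.706 units in CHIR and 0.394 in CHIR+SB, so the IgG reads given below are not on one scale. Of the CHIR+SB only peaks, 962 had under 20 reads (83.7%, 81.4 to 85.7%), against 157 of the shared CHIR+SB peaks (23.7%, 20.5 to 27.1%). With at least 20 reads in both lists, 540 CHIR only and 188 CHIR+SB only peaks remained, a ratio of 0.348, so the order turned. With the CHIR minimum of normalized signal applied to both lists it did not turn, since only 6 CHIR+SB only peaks fell below it and the ratio was 2.96. Among the 500 highest peaks of each list the classes were almost equal, with 179 CHIR only and 182 CHIR+SB only peaks.

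Peaks of a single list were lower and narrower than shared ones in both libraries. Median normalized signal was 9.60 in CHIR only peaks and 14.2 in shared CHIR peaks, and 8.44 in CHIR+SB only peaks against 14.6 in shared CHIR+SB peaks. Median width was 244.5 bp in CHIR only, 187.5 bp in CHIR+SB only, and 439 and 468 bp in shared peaks of CHIR and CHIR+SB. The normalized IgG signal was lower in the unshared peaks as well, with medians of 2.12 and 1.97 against 2.82 and 3.54. The ratio of β-catenin to IgG signal therefore separated the classes little, with medians of 4.35 in CHIR only, 4.29 in CHIR+SB only, and 4.76 and 4.18 in shared peaks. Signal of unshared peaks reached 26.5 in CHIR and 29.3 in CHIR+SB, against 89.9 and 69.8 among shared peaks. The plot of signal against width shows the unshared peaks at the lower left in both lists.

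**Figure D1:**
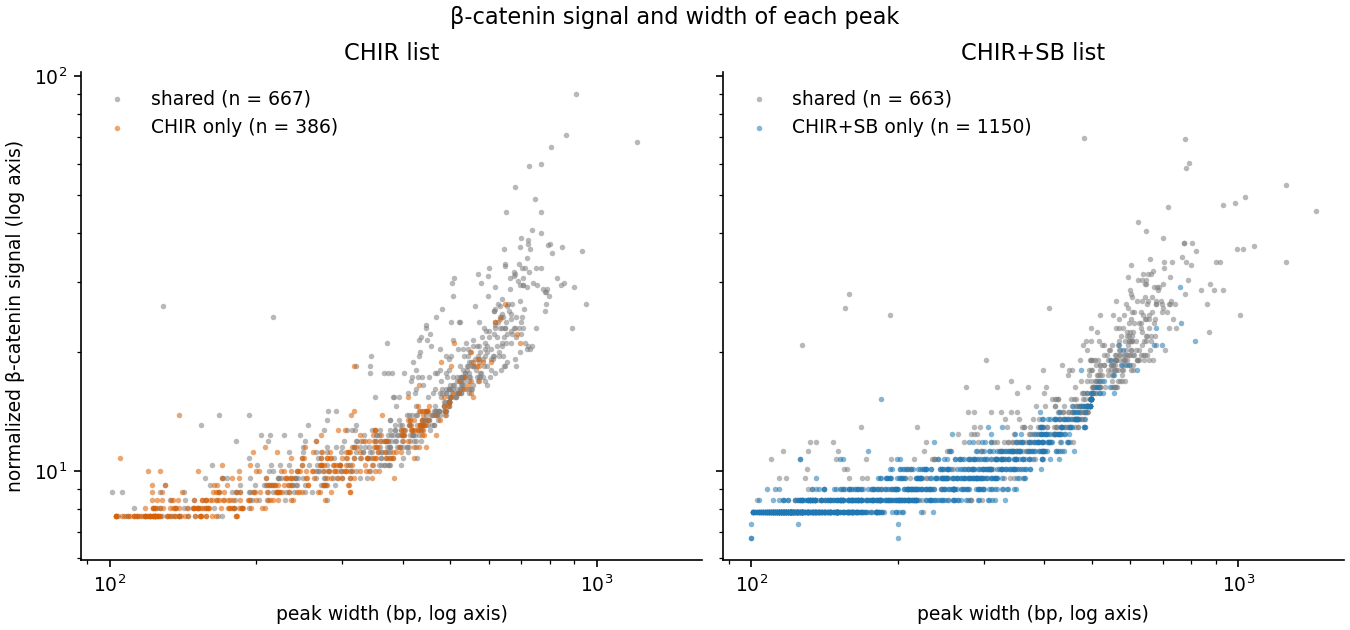
Normalized β-catenin signal (log axis) against peak width in bp (log axis) for each peak of the CHIR list (left) and the CHIR+SB list (right), coloured by whether the peak overlaps one of the other list. Signal rises with width in both lists, and no unshared peak passes 29.3.

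The share of peaks found again rose with signal in both lists. A promoter peak is one whose centre lies within 1 kb of the TSS of its assigned gene. In the lowest of 4 equal groups by signal, 14 of 49 promoter peaks of the CHIR list were shared (28.6%, 16.6 to 43.3%) and 72 of 215 other peaks (33.5%, 27.2 to 40.2%). In the lowest group of the CHIR+SB list, 7 of 27 promoter peaks were shared (25.9%, 11.1 to 46.3%) but 16 of 427 other peaks (3.75%, 2.16 to 6.01%). In the highest group the shares were 94.2% of 120 promoter peaks and 82.0% of 333 other peaks in CHIR+SB, and 91.5% of 118 and 94.5% of 145 in CHIR. Over all these groups, low CHIR+SB peaks away from promoters had the lowest share.

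**Figure D2:**
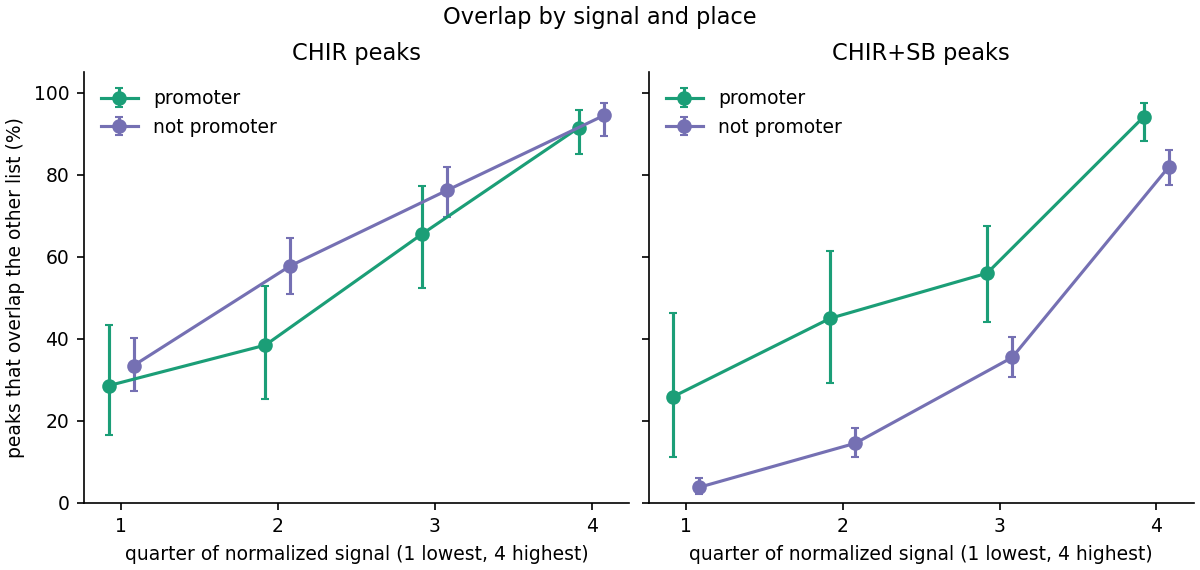
Share of peaks (%) that overlap the other list, by group of normalized signal (4 groups of equal size), for promoter peaks and other peaks of the CHIR list (left) and the CHIR+SB list (right); bars are exact 95% intervals. In the CHIR+SB list promoter peaks lie above the others in every group, while in the CHIR list the intervals overlap.

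Peaks found in CHIR+SB alone lay farther from the TSS of their assigned genes. Promoters held 82 of the 1150 (7.13%, 5.71 to 8.77%), against 98 of the 386 CHIR only peaks (25.4%, 21.1 to 30.0%) and 182 of the 667 shared CHIR peaks (27.3%, 23.9 to 30.8%). CHIR+SB only peaks lay a median of 65.2 kb from the TSS, CHIR only peaks 14.9 kb and shared CHIR peaks 15.8 kb. More than 50 kb from the TSS lay 55.2% of the CHIR+SB only peaks (52.3 to 58.1%) and 33.2% of the CHIR only peaks (28.5 to 38.1%). By chromosome, the intervals of the CHIR+SB only and CHIR only shares were apart on chromosomes 19 and 17 and overlapped on the others. Chromosome 19, which is dense in genes, held 4 of the CHIR+SB only peaks (0.348%, 0.0948 to 0.888%) and 12 of the CHIR only peaks (3.11%, 1.62 to 5.37%). Chromosome 17 held 20 in each class, 1.74% and 5.18%, whereas chromosome 22, also dense in genes, held 9 and 3, 0.783% and 0.777%. The intervals of the CHIR only and shared classes overlapped in each of these shares. The CHIR+SB only peaks were also those with the lowest read counts, and the part of that in their location was not tested.

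**Figure D3:**
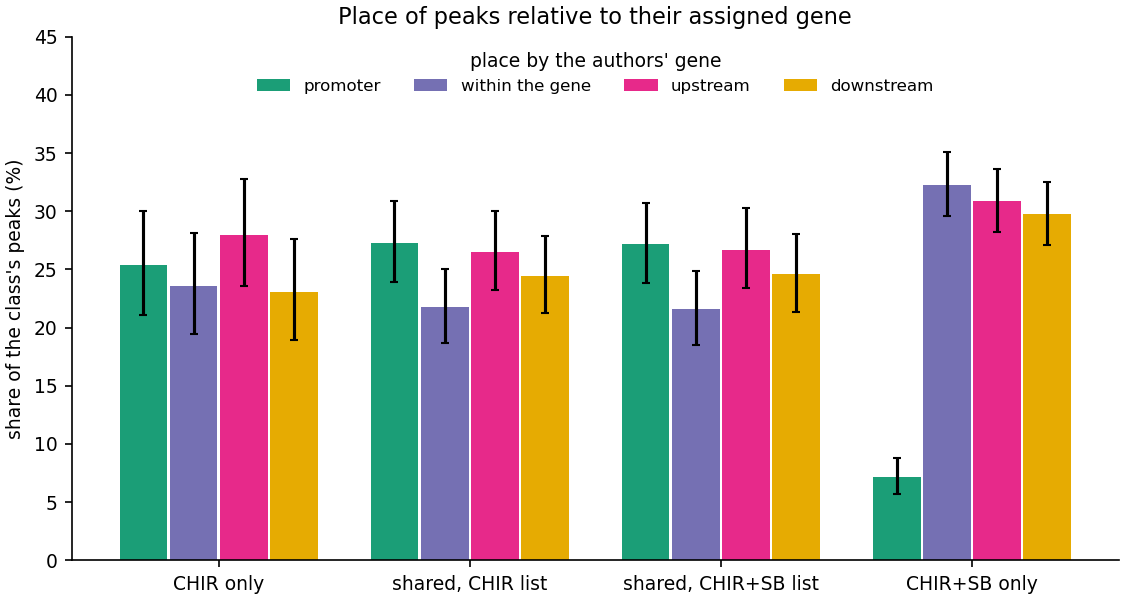
Share of peaks (%) at promoters, within the assigned gene, upstream and downstream of it, for CHIR only peaks, shared peaks as listed in each condition, and CHIR+SB only peaks; bars are exact 95% intervals. The promoter share is 7.13% in CHIR+SB only peaks and 25.4% in CHIR only peaks.

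Sites already listed in RPMI without inhibitor were mostly shared. CHIR peaks with an RPMI peak at the same place were shared in 152 of 179 cases (84.9%, 78.8 to 89.8%), against 515 of 874 others (58.9%, 55.6 to 62.2%). In CHIR+SB it was 152 of 159 (95.6%, 91.1 to 98.2%) against 511 of 1654 (30.9%, 28.7 to 33.2%). Of the CHIR only peaks 27 overlapped an RPMI peak, 20 of them at promoters, and of the CHIR+SB only peaks 7 did. At the promoter of DCTN2, a dynactin subunit named after its values were seen, an unshared peak of each list overlapped an RPMI peak; they held 37 reads in CHIR and 19 in CHIR+SB and lay 0.093 kb apart.

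Among the 10 highest CHIR only peaks, 6 overlapped an RPMI peak. SUPT5H, which encodes a subunit of the transcription elongation factor DSIF, had a promoter peak of 69 reads and 9 IgG reads (normalized signal 26.5). FSIP1 had a promoter peak of 63 reads with 2 IgG reads, and CCDC92 one of 58 reads. The promoters of TMCO1, a calcium channel of the endoplasmic reticulum, and SEPT7, a septin of the cytoskeleton, had 55 and 52 reads. A peak of 55 reads lay 28.4 kb downstream of WNT10A, a Wnt ligand, and was also in the RPMI list. All 6 of these were RPMI sites.

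The others of the 10 were absent from RPMI. A peak of 62 reads lay 5.10 kb downstream of LOC100130275, which its accession identifies as TFAP2A-AS1, the antisense neighbour of the AP-2α gene TFAP2A. NFE2, a transcription factor of blood cells, had a promoter peak of 49 reads. Peaks of 50 reads 22.4 kb downstream of COL4A2-AS1 and 49 reads within HYDIN, a gene of motile cilia, complete the set. CHIR only peaks at the MBTPS1 promoter and upstream of WDYHV1 also had 49 reads, so the choice within this tie was arbitrary. At the FSIP1 promoter the nearest CHIR+SB peak was 31.1 kb away, and at the other 9 of the 10 it was at least 106.6 kb away.

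None of the 10 highest CHIR+SB only peaks lay at a promoter or overlapped an RPMI peak. The highest had 52 reads and 10 IgG reads (signal 29.3) and lay 29.7 kb upstream of RMI2, a member of the complex that resolves recombination intermediates; a CHIR peak lay 12.4 kb away. The next, of 42 reads, lay within the noncoding gene LINC00261, whose neighbour in the reference is FOXA2, a transcription factor of endoderm, and was 7.18 kb from a CHIR peak. Within DUSP10, a phosphatase of the stress-activated MAP kinases, the peak held 41 reads against 7 of IgG, with no CHIR peak for 4509 kb. SMYD2, a lysine methyltransferase, had 37 reads against 4 of IgG. FLT3, a receptor tyrosine kinase whose reference neighbours are URAD and CDX2, had 36 reads and 2 IgG reads, 71.2 kb from the nearest CHIR peak. POM121L12, MSR1, ODF1, RP9P and ZNF608 had peaks of 33 to 38 reads. Peaks assigned to MANEA and MIR548I4 tied with that of ZNF608 at 33 reads.

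Of the 10 highest shared peaks, ranked by the lower of the signals, 6 were at promoters. ERCC6L2, a gene of DNA repair, had 185 reads in CHIR and 123 in CHIR+SB, a ratio of normalized signal of 0.974 (0.769 to 1.23). DENR, a translation factor, had 156 and 104 reads (0.977, 0.755 to 1.26), and the kinase gene CDK12 136 and 107 reads (1.15, 0.886 to 1.496). QRICH1, RNF167 and the dynein gene DYNC1H1 had ratios of 0.944, 1.05 and 0.894. At these 6, all present in RPMI, the interval held 1. CDX2 was one of 2 sites in the 10 highest that RPMI lacked; the other was TSPAN18, with 104 and 67 reads (0.944, 0.684 to 1.30). A site 863.4 kb downstream of the potassium channel gene KCNJ2, had 98 and 67 reads and a ratio of 1.00.

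Over the 642 regions with 1 peak of each list, the ratio of CHIR+SB to CHIR signal had a median of 1.00 and quartiles of 0.811 and 1.24. The ratio was at least 1.5 at 75 regions (11.7%) and at most 1/1.5 at 57 (8.88%). Its interval lay above 1 at 43 regions (6.7%) and below 1 at 27 (4.21%). These ratios followed the width that was counted. All 43 regions above 1 were wider in CHIR+SB (median width ratio 1.99, median signal ratio 1.93), and all 27 below 1 were narrower (0.552 and 0.536). Per kb of width their median ratios were 0.946 and 0.973. Of the 642, 57 were at least 1.5 times higher per kb in CHIR+SB and 52 at least 1.5 times lower, counts added after seeing the data. These counts are not free of width, since dividing by width can turn the direction. At FOXN3 the whole-peak ratio was 0.879, the width ratio 0.297 and the ratio per kb 2.96. At CSTF2T they were 2.04, 5.14 and 0.397. Both genes were chosen after their values were seen. Over all 642 regions the Pearson correlation of the log signal ratio with the log width ratio was 0.839, a description across peaks of 1 pair of libraries. Each count covers the boundaries called in its own library, and within a list signal also followed width (Spearman 0.938 in CHIR and 0.929 in CHIR+SB). Occupancy and extent of the called peak cannot be told apart in these ratios.

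**Figure D4:**
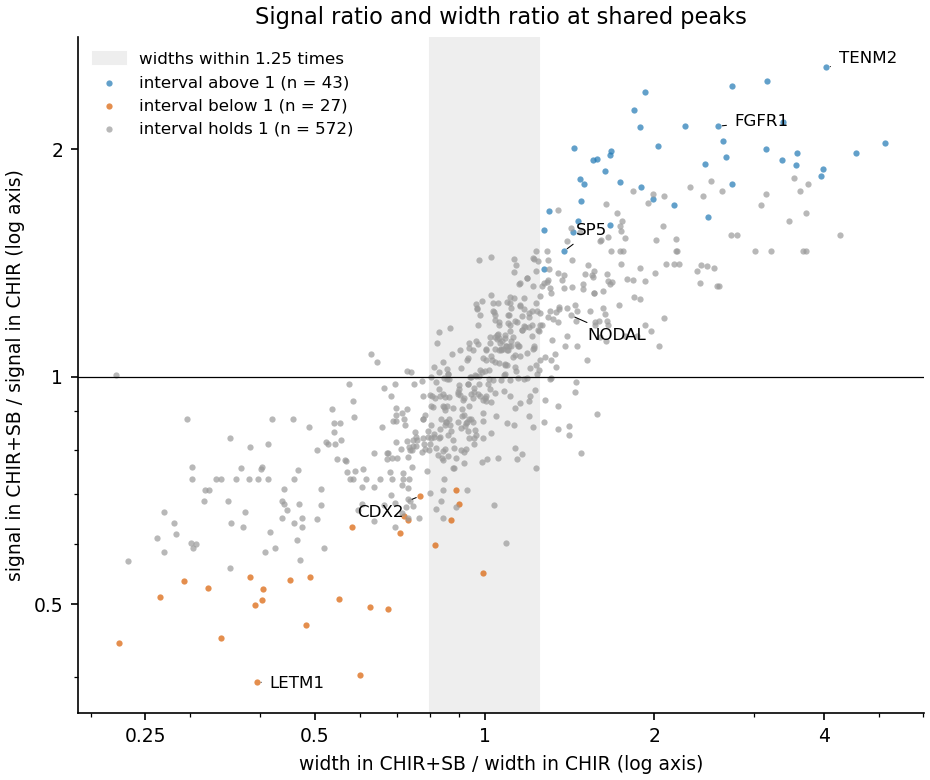
Ratio of CHIR+SB to CHIR normalized signal (log axis) against the ratio of peak widths (log axis) at 642 regions with 1 peak of each list, coloured by whether the exact 95% interval of the ratio lies above, below or around 1; the grey band holds pairs whose widths differ by less than a factor of 5/4. Every region with an interval above 1 lies to the right of equal width, and every region with one below 1 to the left.

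At 279 regions the widths differed by less than a factor of 5/4. Because signal followed width, choosing pairs of like width also chose pairs of like signal. The closeness of their signals is therefore no measure of how well the libraries agree. The median ratio was 1.00, with quartiles of 0.879 and 1.12. No region reached 1.5, and 5 were at most 1/1.5. The Spearman correlation of the signals was 0.895 across these peaks, against 0.629 over all 642. The interval excluded 1 at 5 of the 279 regions, all below 1 and all at promoters that also had a peak in RPMI. The genes named here were chosen after their values were seen. COPB2, a coat protein of Golgi vesicles, had 56 and 21 reads over 432 and 430 bp (0.549, 0.316 to 0.922). ATF2, a transcription factor, had 71 and 29 reads (0.598), and ARF3, a vesicle traffic GTPase, 127 and 56 (0.646). SKA3, a kinetochore protein, had 95 and 44 reads (0.678).

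Promoters had lower ratios than other shared sites whether or not RPMI listed them. The median was 0.874 at 109 promoter regions found in RPMI and 0.872 at 63 promoter regions not found there. At other sites it was 1.05 in 39 regions found in RPMI and 1.06 in 431 not found there. Promoter peaks were also narrower in CHIR+SB (median width ratio 0.909) and other peaks wider (1.07), and per kb the medians were 0.993 and 1.02. In the 85 promoter regions of like width the median was 0.943, and in the 194 other regions of like width 1.02. IgG moved along: the 642 regions held 2983 IgG reads in the CHIR library and 6176 in the CHIR+SB library, which after scaling is a ratio of 1.16, and it was 1.06 at promoters and 1.21 elsewhere. The part of width and IgG in the promoter difference was not tested.

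The 10 lowest ratios with an interval below 1 ran from 0.394 to 0.508. LETM1, an ion exchanger of mitochondria, had 78 and 21 reads (0.394, 0.231 to 0.645) over 740 and 292 bp, and per kb the ratio was 1.00. UHRF2, an E3 ubiquitin ligase, had 80 and 22 reads at its promoter (0.403, 0.239 to 0.652), and 0.671 per kb. The ephrin receptor gene EPHA2 had 56 and 17 reads (0.445) at a site 39.9 kb from its TSS whose CHIR+SB peak was 114 bp wide, and 1.98 per kb. UPF3A, LRRC28, RPL10A and WDR77 had such ratios at their promoters and AUTS2 within the gene. BMP7, a BMP ligand, had 65 and 22 reads at a site 341.3 kb downstream (0.496, 0.291 to 0.815), and TEAD1, a partner of YAP, 55 and 19 reads within the gene (0.506, 0.284 to 0.866). Of these 10 sites 5 were promoters and 5 were in RPMI, and all 10 were narrower in CHIR+SB.

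The 10 highest ratios ran from 2.05 to 2.56, and 1 of them, DHFRL1, was at a promoter. The lists assign this site to DHFRL1, a dihydrofolate reductase paralogue, in CHIR and to NSUN3, an RNA methyltransferase gene, in CHIR+SB, with 23 and 38 reads (2.42, 1.40 to 4.26). FGFR1, a receptor for FGF ligands, had 41 and 60 reads within the gene (2.14, 1.42 to 3.27), over 482 and 1251 bp, and 0.826 per kb. TUBB2A, a β-tubulin, had 37 and 60 reads (2.38, 1.55 to 3.68), and 1.23 per kb. The others were TENM2, LDB2, LCORL, FMO2, GRB14, FHIT and YAF2. At these 10 sites the CHIR library held 0 to 5 IgG reads and the CHIR+SB library 7 to 20. Over all 642 regions the CHIR+SB library also held more IgG reads, 6176 against 2983, each worth less after scaling.

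In 15 regions 1 peak of one list spanned several of the other, and summing the parts gave values that the pairs above lack. At the AXIN2 TSS (AXIN2 is the scaffold of the β-catenin destruction complex and a feedback target of Wnt) the CHIR peaks of 61, 67 and 32 reads covered 1142 bp and the single CHIR+SB peak of 81 reads covered 1440 bp, within chr17:63556640-63558090 (hg19). The summed ratio was 0.742 (0.561 to 0.975), a ratio of sums over peaks called separately. The AXIN2 sites with 1 peak in each list had ratios above 1: 1.56 at 11.4 kb upstream (0.932 to 2.61), 1.22 at 32.2 kb upstream (0.852 to 1.74) and 1.06 at 66.4 kb downstream (0.635 to 1.76), with intervals that held 1. Upstream of EVX1, a homeobox gene of the streak, 163 reads in 2 CHIR peaks stood against 94 in 1 CHIR+SB peak (0.845, 0.648 to 1.10). A region assigned to STYXL1 (CHIR peak of 64 reads) and to its neighbour MDH2, malate dehydrogenase of mitochondria (CHIR peak of 68 reads and CHIR+SB peak of 47), held 132 and 47 reads over 345 and 676 bp (0.522, 0.366 to 0.733). REST, the repressor of neuronal genes, had 57 and 24 reads (0.617, 0.366 to 1.01), and the Wnt receptor gene FZD7 67 and 34 (0.743, 0.477 to 1.14). The converse, 1 CHIR peak over 2 CHIR+SB peaks, was found at WNT3A (60 and 35 reads, 0.855), FZD2 (45 and 34 reads, 1.11), ASXL1 (154 and 90 reads, 0.856) and RBM39 (234 and 174 reads, 1.09), among others. At the AXIN2 TSS and the STYXL1 and MDH2 region the interval excluded 1, and at the other 13 regions it did not.

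The genes T, NODAL, SP5 and CDX2 mark the streak and the Wnt response. ChIP measures binding near them and not their expression. T (current symbol TBXT, brachyury) had 1 CHIR peak, chr6:166581261-166581540 (hg19), with 28 reads against 4 of IgG, and no peak in CHIR+SB. The CHIR peak lay within the gene, 0.7565 kb from the TSS, and so counts as a promoter peak here. Its signal of 10.8 was above the CHIR only median of 9.60. The nearest further peak within reach of T was a CHIR only peak of 23 reads at 85.5 kb, assigned to PRR18. NODAL, the ligand whose receptors SB431542 blocks, had a shared peak 13.8 kb upstream, chr10:72214914-72215541 (hg19) in CHIR, with 62 reads and 1 IgG read in CHIR and 51 reads and 12 IgG reads in CHIR+SB. The CHIR+SB peak was wider (892 against 627 bp), and the ratio was 1.21 for the whole peak (0.815 to 1.77) and 0.847 per kb.

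At SP5, chr2:171571295-171572007 (hg19) in CHIR, the equal counts of 85 reads gave a ratio of 1.46 (1.07 to 2.0) for the whole peak and 1.06 per kb, with 7 and 27 IgG reads. At CDX2, a caudal homeobox gene, the peak within the gene had 177 reads in CHIR and 84 in CHIR+SB (0.695, 0.530 to 0.906), and 0.905 per kb, with 12 and 32 IgG reads. A second CDX2 peak, of 14 reads and 6 IgG reads 7.60 kb downstream, was found in CHIR+SB alone. Per kb, NODAL, SP5 and CDX2 lay between 0.847 and 1.06, a narrower range than their whole-peak ratios of 0.695 to 1.46.

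Over all genes with a peak within 50 kb of the TSS in either list, 1092 in all, 215 were near a peak in CHIR only (19.7%), 422 in both (38.6%) and 455 in CHIR+SB only (41.7%). The 249 genes of the 11 developmental and control lists held 87 such genes: 14 in CHIR only (16.1%), 51 in both (58.6%) and 22 in CHIR+SB only (25.3%). In these counts of genes, both means a peak of each list within 50 kb, and the peaks need not overlap. A gene in both can therefore have unshared peaks alone. With at least 20 reads in both lists the 3 numbers over all genes were 315, 322 and 89, so the size of the CHIR+SB only group depends on the read cut. That cut left all 1053 CHIR peaks but 694 of the 1813 CHIR+SB peaks. Genes were not counted at a common lowest normalized signal. The median ratio over the 412 pairs near any gene was 0.959.

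**Figure D5:**
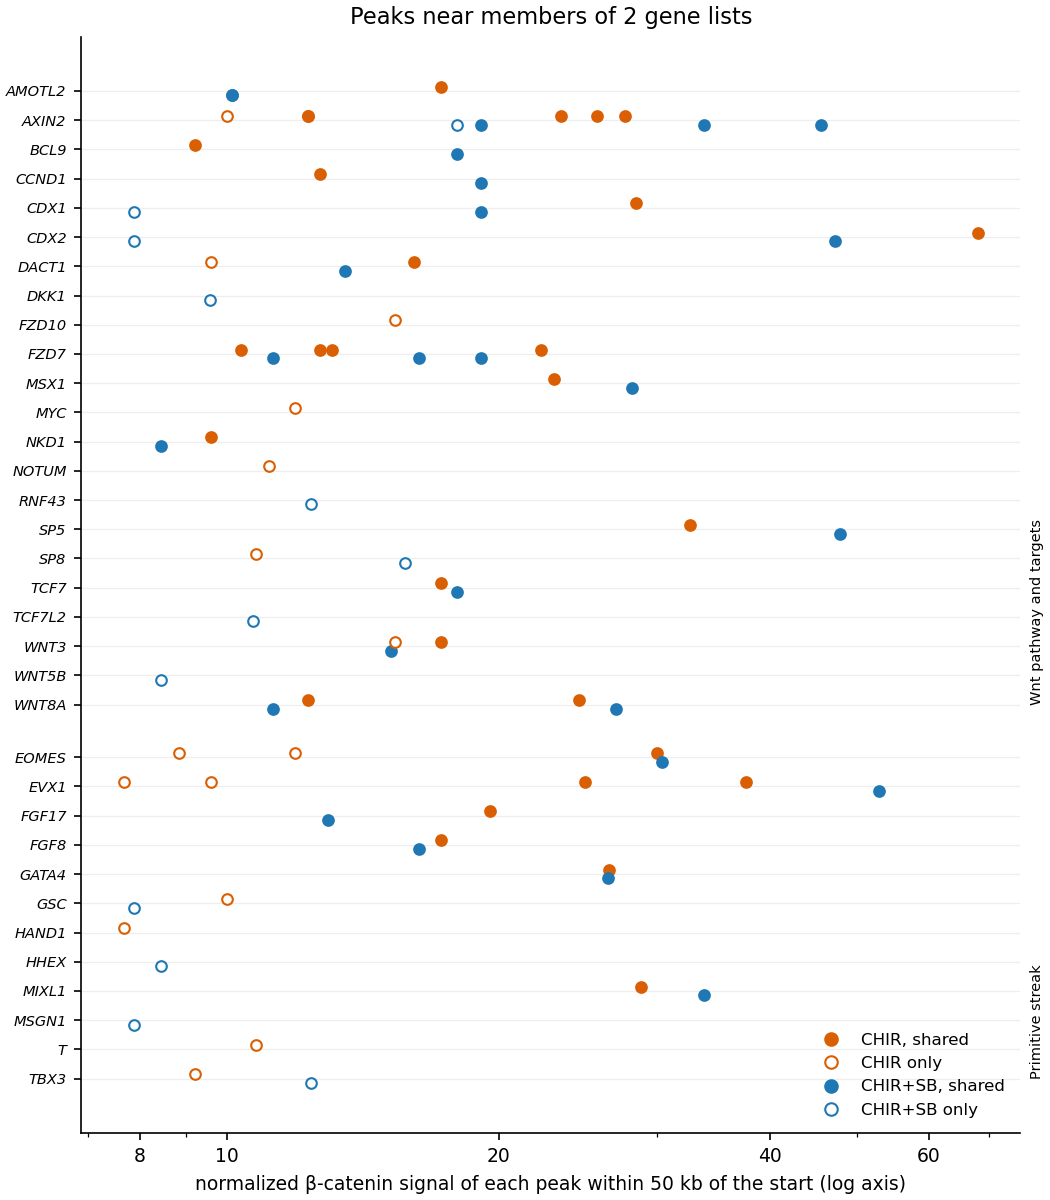
Normalized β-catenin signal (log axis) of each peak within 50 kb of the TSS of the Wnt and primitive streak genes that have one; filled points are shared peaks, open points are peaks found in 1 list, orange is CHIR and blue CHIR+SB. Open points lie at or below a signal of 18.0, and the shared peaks of CDX2, SP5 and EVX1 lie farthest to the right.

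Of 44 Wnt pathway genes and targets, 22 had a peak within 50 kb: 3 in CHIR only, 15 in both and 4 in CHIR+SB only. The median ratio of 17 pairs was 1.04 (range 0.586 to 1.95), with 3 at least 1.5 and 1 at most 1/1.5. Among ligands, WNT3 had a shared peak of 45 and 27 reads (0.879, 0.524 to 1.45) and a CHIR only peak of 40 reads 3.13 kb upstream. WNT8A had shared peaks of 32 and 20 reads (0.916) and 64 and 48 reads (1.10). WNT5B had a CHIR+SB only peak of 15 reads near its TSS. Among receptors, all FZD7 peaks were shared, and FZD10 had a single site 2.56 kb from the TSS, in CHIR only, with 40 reads against 6 of IgG.

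The feedback inhibitors of the pathway were spread over all classes. DACT1 had a shared peak of 42 and 24 reads (0.837, 0.485 to 1.41) and a CHIR only peak of 25 reads 2.17 kb upstream. NKD1 had a shared promoter peak of 25 and 15 reads (0.879). NOTUM, an enzyme that inactivates Wnt ligands, had a peak of 29 reads in CHIR only. RNF43, a ubiquitin ligase that removes Wnt receptors, had one of 22 reads and 3 IgG reads in CHIR+SB only. The secreted inhibitor gene DKK1 had a CHIR+SB only peak of 17 reads 39.0 kb downstream. Beyond the limit of 50 kb, 64.2 kb downstream, DKK1 also had a CHIR only peak of 23 reads. Of the factors that act with β-catenin, TCF7 had 45 and 32 reads (1.04), the coactivator gene BCL9 24 and 32 reads at a site also in RPMI (1.95, 1.11 to 3.47), and TCF7L2 a CHIR+SB only peak of 19 reads. BCL9 peaks spanned 215 and 577 bp, and the ratio per kb was 0.728.

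Of the target genes, CDX1 had a promoter peak of 74 and 34 reads (0.673, 0.435 to 1.02), MSX1 60 and 50 reads upstream (1.22, 0.822 to 1.81), and the cyclin D1 gene CCND1 33 and 34 reads at the promoter (1.51, 0.907 to 2.51). AMOTL2, an inhibitor of YAP, had 45 and 18 reads at the promoter (0.586, 0.319 to 1.03). MYC had a CHIR only peak of 31 reads. SP8, a relative of SP5, had a CHIR only peak of 28 reads upstream and a CHIR+SB only peak of 28 reads and 9 IgG reads downstream, the highest unshared CHIR+SB peak of the list after that of 32 reads and 15 IgG reads 45.4 kb downstream of AXIN2. Intervals at CDX1, MSX1, CCND1 and AMOTL2 held 1.

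Of 25 primitive streak genes, 12 were near a peak: 2 in CHIR only, 8 in both and 2 in CHIR+SB only, with a median ratio of 0.998 over 5 pairs. EOMES, a T-box factor, had 3 CHIR peaks, and of these the one of 78 reads was shared (54 reads in CHIR+SB, ratio 1.01, 0.703 to 1.45). Those of 23 and 31 reads, 3.29 kb and 9.20 kb from the TSS, were CHIR only. At EVX1 the CHIR only peaks had 20 and 25 reads and lay within the gene, 0.057 and 1.45 kb from the TSS. At both genes the highest sites were shared and the lower ones were not.

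MIXL1, a homeobox gene of mesendoderm, had 75 and 60 reads (1.17, 0.820 to 1.67) over 664 and 704 bp. GATA4, a factor of endoderm and heart, had 69 and 47 reads (0.998, 0.674 to 1.47) over 788 and 741 bp. FGF17 had 51 and 23 reads (0.661, 0.385 to 1.10), and FGF8 45 and 29 reads (0.944, 0.571 to 1.54). GSC, a homeobox gene of the organizer, had peaks of 26 reads in CHIR and 14 in CHIR+SB within the gene that did not overlap, 1.64 and 1.40 kb from the TSS. HAND1 had a CHIR only peak of 20 reads, the lowest count of that list. HHEX and MSGN1 had CHIR+SB only peaks of 15 and 14 reads. TBX3 had an unshared peak in each list, of 24 and 22 reads. The unshared peaks of the streak genes thus held 31 reads or fewer.

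Of 22 genes of Nodal signalling and SMAD2/3, 6 were near a peak, none of them in CHIR only, 4 in both and 2 in CHIR+SB only. Besides NODAL, FOXH1, the DNA-binding partner of SMAD2/3, had 36 and 18 reads (0.732, 0.392 to 1.32). TDGF1, the co-receptor of Nodal, had 33 and 18 reads at its promoter (0.799, 0.424 to 1.46). The intervals of FOXH1, TDGF1 and NODAL held 1. SMAD2 had a CHIR+SB only peak of 17 reads within the gene, and the receptor gene ACVR1C one of 14 reads near its TSS.

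Of 16 genes of FGF signalling and ERK feedback, 8 were near a peak: none in the CHIR list alone, 6 in both lists and 2 in the CHIR+SB list alone. Of the 6, FGFR2 and ETV4 had no shared peak. FGFR2 had unshared peaks of 20 reads in CHIR and 19 in CHIR+SB, and ETV4 of 25 and 14 reads. Besides FGFR1, the phosphatase gene DUSP6 had shared peaks of 30 and 15 reads (0.732, 0.366 to 1.40) upstream and 24 and 22 reads (1.34, 0.718 to 2.5) within the gene. ETV5, an ETS factor induced by FGF, had 41 and 15 reads (0.536, 0.276 to 0.989), and its CHIR+SB peak was 124 bp wide against 424 bp. SPRY4, a feedback inhibitor, had 31 and 15 reads (0.709, 0.356 to 1.35). DUSP4 had a CHIR+SB only promoter peak of 20 reads and 9 IgG reads, and FGF19, at 1.60 kb from its TSS, one of 25 reads against 12 of IgG. FGFR1 and ETV5, with intervals on opposite sides of 1, also stood at opposite ends in width.

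Of 20 pluripotency genes, 9 were near a peak: 3 in CHIR only, 2 in both and 4 in CHIR+SB only. POU5F1, which encodes OCT4, had 68 and 40 reads (0.862, 0.568 to 1.29) 1.40 kb upstream over 562 and 633 bp. JARID2, a subunit of Polycomb complex PRC2, had 40 and 51 reads 37.4 kb upstream (1.87, 1.21 to 2.90), over 511 and 837 bp, and 1.14 per kb. DPPA4 had a CHIR only peak of 34 reads, ZSCAN10 one of 28 and VRTN one of 26, the last at its promoter. SOX2 had a CHIR+SB only peak of 17 reads, L1TD1 one of 20, SALL1 one of 21 and LIN28A one of 15. The CHIR+SB only peaks of this list had 4 to 11 IgG reads, and those in CHIR only had 4 each.

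The miR-302 cluster, a set of microRNAs abundant in pluripotent cells, carried 2 shared sites at MIR302B, which are named after their values were seen. The mature 3p arms of its members share the seed (bases 2 to 8, in capitals), and they are shown from RefSeq (GRCh38.p14, minus strand), the first at chr4:112648489-112648511.
miR-302b-3p: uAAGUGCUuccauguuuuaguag
miR-302c-3p: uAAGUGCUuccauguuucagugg
miR-302a-3p: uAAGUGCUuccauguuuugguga
miR-302d-3p: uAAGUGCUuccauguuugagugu

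The promoter peak of MIR302B, 0.4485 kb from the start, had 33 reads and 4 IgG reads in CHIR and 38 reads and 11 IgG reads in CHIR+SB. The ratio was 1.69 (1.03 to 2.78) for the whole peak over 275 and 597 bp, and 0.777 per kb. The second site, 3.87 kb upstream, had 26 and 25 reads (1.41, 0.780 to 2.54). No RPMI peak overlapped either.

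Of 23 neurectoderm genes, 11 were near a peak: 3 in CHIR only, 4 in both and 4 in CHIR+SB only. PAX7, a factor of neural crest and dorsal neural tube, had 44 and 59 reads within the gene (1.96, 1.31 to 2.97), over 480 and 800 bp, and 1.18 per kb. GBX2, a homeobox gene of the anterior hindbrain, had shared peaks of 81 and 48 reads (0.868, 0.594 to 1.26) and 49 and 34 reads (1.02, 0.636 to 1.61). OTX2, a homeobox gene of forebrain and midbrain, had 32 and 16 reads at its promoter (0.732, 0.375 to 1.37). NKX6-1 had a CHIR only promoter peak of 43 reads and 7 IgG reads, the highest unshared peak of the list. EMX2 and LHX2 had CHIR only peaks of 29 and 20 reads, and EN1, NEUROG2, LHX5 and SIX6 had CHIR+SB only peaks of 14 to 17 reads.

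Of 39 HOX genes, 9 were near a peak: 2 in CHIR only, 6 in both and 1 in CHIR+SB only. HOXB13 had 85 and 36 reads upstream (0.620, 0.408 to 0.926), and 0.877 per kb. HOXD13 had 39 and 38 reads (1.43, 0.889 to 2.29) over 498 and 487 bp. HOXB1 and HOXD3 had CHIR only peaks of 21 and 23 reads, and HOXA10 a CHIR+SB only peak of 16 reads.

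Of 12 genes of the Hippo pathway and its targets, 5 were near a peak, none in CHIR only, 2 in both and 3 in CHIR+SB only. ANKRD1, a YAP target, had 35 and 26 reads (1.09, 0.629 to 1.86). TEAD1 had, beside its shared peak, CHIR+SB only peaks of 21 and 18 reads within 50 kb. YAP1 had a CHIR+SB only promoter peak of 21 reads and 10 IgG reads, CYR61 one of 16 reads downstream and TEAD4 one of 14 within the gene. Of 15 BMP genes, 3 were near a peak: BMP4 with a CHIR only peak of 27 reads, ID3 with 33 and 17 reads (0.755, 0.394 to 1.39) and MSX2 with unshared peaks of 28 reads in CHIR and 14 in CHIR+SB. Of 18 genes of differentiated cells, 2 were near a peak, both in both lists: the cartilage collagen gene COL2A1 with 64 and 35 reads (0.801, 0.515 to 1.23) and SERPINA1 with 29 and 15 (0.758, 0.378 to 1.46). Of 15 housekeeping genes none was.

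Among genes with the most unshared CHIR+SB peaks, ZNF608, a zinc-finger gene, had 7 of 14 to 33 reads, the farthest 455.1 kb from its TSS, and no CHIR peak. LPHN2, an adhesion receptor, had 5, of 14 to 16 reads, and no CHIR peak. NUP35, PAX3, PRKG1-AS1 and RBFOX1 had 4 each. Of the CHIR only peaks, 3 were assigned to RGMA, a ligand of neogenin, with 21 to 28 reads, and ANO1, CDYL and EOMES had 2 each. Shared sites were most frequent at MYO3B, the gene beside LINC01124 and SP5, with 5. AUTS2, AXIN2 and FOXB1, a forkhead factor, had 4 each, and FZD7 and LDB2 had 3. The 5 MYO3B sites held 27 to 57 CHIR reads and 15 to 34 CHIR+SB reads, with ratios of 0.698 to 1.00 whose intervals all held 1.

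TCF/LEF words were counted in RefSeq promoters of 300 bases, 250 before and 50 after the start. Of all 27305 promoters, 6.98% held CTTTGAT or CTTTGAA on either strand. Among genes with a promoter peak the share was 13 of 142 in shared peaks (9.15%, 4.97 to 15.1%), 4 of 78 in CHIR only (5.13%, 1.41 to 12.6%) and 2 of 60 in CHIR+SB only peaks (3.33%, 0.406 to 11.5%). Each interval held the share of all promoters. The word lay inside the peak at 10 genes of the shared CHIR peaks, among them SP5, the Mediator gene MED1, the DNA demethylase gene TET2 and the splicing gene CDC5L. It lay inside the peak at none of the 4 genes in CHIR only and at 1 of the 2 in CHIR+SB only, SIX6. At HAND1 the word starts 46 bases before the TSS, and the CHIR only peak ended 525 bases before it.

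The SMAD word CAGACA was in 16.8% of all promoters, 13.4% of those with shared peaks, 11.5% of those with CHIR only peaks and 16.7% of those with CHIR+SB only peaks. The OCT4 word ATGCAAAT was in 1.80% of all promoters and in 1, 2 and 2 promoters of the shared, CHIR only and CHIR+SB only classes. The FOXH1 word AATCCACA was in 0.798% of all and in 2, 1 and 1 promoters. The matches are descriptions of these windows, and sequence of the distal peaks, which are the larger part of each class, was not analysed here.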

How the data were processed

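β-catenin ChIP-seq peak lists of 2 conditions were compared, with the RPMI list used for overlap. The deposited lists give, per the file headers, each peak's position, assigned gene, distance to its TSS, counts of β-catenin and IgG reads, normalized signals, their ratio and −log10 p-values. The normalized signal deposited by the authors equalled the read count times 1 factor per library. The deposited ratio holds 10000 where the IgG count is 0. Decimal commas were read as points. Reads were aligned with Bowtie, and hg19 and mm9 are the builds named, per the submitters' processing notes; for these human cells hg19 was taken. Not given in the sources used here were the peak caller, thresholds, versions, library totals and how reads at peak boundaries were counted.

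Peaks were matched by at least 1 bp. Ratios are CHIR+SB over CHIR normalized signal, with exact conditional binomial 95% intervals; shares have Clopper-Pearson intervals. Genes within 50 kb of a peak counted as near. The text names the 10 highest peaks of each class by signal, the 10 most extreme ratios whose interval excluded 1, genes with the most regions, the markers and list members; others are said to be chosen after their values were seen. Members and lists were chosen with earlier results of these data known. Symbols matched RefSeq for 921 of 928 CHIR and 1502 of 1511 CHIR+SB genes, and promoter sequences for 230 of 277 and 208 of 255 promoter genes. Python 3.11.15, pandas 2.3.3, NumPy 2.4.6, SciPy 1.17.1 and matplotlib 3.10.9 were used, tested on simulated data. Alternatives of overlap, read minimum, width and distance were tried. Some members that enter the counts are not reported here by name.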

Additional observations from a re-analysis of the deposited data

How the results depend on the processing

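No paired analysis was possible because each condition had 1 library, and for the same reason no library could be left out. With at least 20 reads in both lists, the share of CHIR peaks shared moved from 63.3% to 48.7%, that of CHIR+SB peaks from 36.6% to 72.9%, and the ratio of CHIR+SB only to CHIR only peaks turned from 2.98 to 0.348, since fewer CHIR+SB peaks enter. Genes near a CHIR+SB peak and no CHIR peak went from 455 of 1092 to 89 of 726 with this cut. The median ratio at shared peaks was then 1.09 over 492 pairs. Since every CHIR peak had at least 20 reads, the cut removed only pairs with low CHIR+SB counts, the numerator of the ratio. Among the 500 highest peaks of each list 63.6% of the CHIR+SB peaks were shared. After subtraction of IgG signal the median ratio was 0.954, and the cause was not tested. Within 10 kb of the TSS, 209 of 656 genes were near a CHIR+SB peak and no CHIR peak. At any distance, of 1791 genes, 648 had a peak of both lists and 863 a CHIR+SB peak and no CHIR peak. A promoter limit of 0.5 kb gave shares of 19.7% in CHIR only and 5.22% in CHIR+SB only peaks, and 2.5 kb gave 30.8%, 33.0% and 10.3% in CHIR only, shared and CHIR+SB only peaks. In settings chosen after seeing the data, like widths left 0 regions at least 1.5 times higher and 5 at least 1.5 times lower in CHIR+SB, from 75 and 57. The other 20 values, under these and the remaining alternatives, stayed within their intervals or within 1.5 times of the count. Read counts of 12 to 20 at many peaks limit the ratios to wide intervals.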
